A study of Mus musculus with 20 samples.

Results

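Among 56239 genes counted in chromatin-associated RNA from B3 cells, 86 were silent at the start of the time-course and transcribed at its end. Silent meant a mean under 0.2 CPM (a gene's read count scaled to the total count of its library) both at 0 h and at 30 min, and transcribed meant a mean of 2 CPM or more at 24 h. 41050 genes met the first limit and 10464 the second, so that the 86 genes made up 0.21% of the silent genes and 0.822% of those at 2 CPM or more at 24 h. 25884 of the silent genes had no count in any library, and of the other 15166 the set made up 0.567%. Levels at 0 h, 30 min and 24 h are the values the genes were chosen by and are given as a description, and tests were made only on the 14 libraries from 1 h to 21 h. A rise by 21 h is still close to what the choice of genes fixes, since each of them had to be high at 24 h.

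B3 is a mouse pre-B cell line that was originally derived from a lymphoma, and in all 20 libraries the cells carried an inducible Ikaros-ERt2 construct brought in with a retrovirus. The 2 libraries at 0 h had no treatment, and the others had 500 nM 4-hydroxytamoxifen (4-OHT) for 30 min or for 1, 2, 6, 12, 15, 18, 21 or 24 h, with 2 replicates each. No library of untreated cells at a later time, and none of 4-OHT on cells without the construct, was analysed here, so the entry of IKZF1 into the nucleus cannot be told apart from 4-OHT itself or from time in culture. Libraries held 33296158 to 46868954 counts, in which 3 counts correspond to 0.064 to 0.0901 CPM. Of 12 pre-B cell markers, 7 were at 2 CPM or more at 24 h, with Pax5 at 1125 CPM at 0 h. Rag1 and Rag2 had no count in any library. Whether their reads were lost in the counting, as those of nearly all genes lying inside others were, was not tested.

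IKZF1, or Ikaros, is a zinc finger transcription factor that B cell progenitors need to stop dividing and to mature, and it binds DNA around the bases GGGAA. It is best known in these cells as a repressor that works with the NuRD complex. The ERt2 domain keeps the fusion protein out of the nucleus until 4-OHT binds it, and RNA held on chromatin is rich in transcripts still being made, so that a gene switched on is seen sooner than in total RNA. Many genes that lymphocytes keep off, such as immunoglobulin V segments before they recombine, can still give such transcripts without a protein following.

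Of the 86 genes, 44 were protein-coding, 22 were long noncoding RNAs, 11 were immunoglobulin segments and 9 were other pseudogenes. Protein-coding genes made up 51.2% of the set, 24.0% of the silent genes and 91.0% of the genes at 2 CPM or more at 24 h. Immunoglobulin segments made up 12.8% of it, against 0.958% and 0.239%. These shares of the silent genes include those never counted. The median gene length was 19.3 kb in the set, 1.36 kb among silent genes and 25.6 kb among genes at 2 CPM or more at 24 h, with a range in the set from 0.294 kb for the shortest to 1022 kb for Cntn4, a neuronal cell adhesion gene. Reads in introns were counted too, per the study's methods, and CPM were not scaled to gene length, so CPM are compared within a gene and not between genes. A gene of low final level also passes a fixed limit in CPM later than one of high final level on the same relative course.

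Promoters of 45 of the 86 genes could be matched to RefSeq (assembly GRCm38.p6). This gave 54 windows from 250 bases before to 50 bases after a start site. Some start sites lie far from the annotated start of the gene, such as 441105 bases for Cntn4. Overlapping windows of one gene, as for Fcgr3, were each counted. The sequences below are those of Adgrv1 and Adcy1, whose levels rose early and late, and of Ms4a4a from a run of neighbours. The others are those of Slco1b2, whose window has no GGGAA, and of Itgax and Gimap3, from the lists of homing and GIMAP genes. Capitals mark GGGAA or its reverse complement TTCCC.
Adgrv1, chr13:81633095-81633394, minus strand: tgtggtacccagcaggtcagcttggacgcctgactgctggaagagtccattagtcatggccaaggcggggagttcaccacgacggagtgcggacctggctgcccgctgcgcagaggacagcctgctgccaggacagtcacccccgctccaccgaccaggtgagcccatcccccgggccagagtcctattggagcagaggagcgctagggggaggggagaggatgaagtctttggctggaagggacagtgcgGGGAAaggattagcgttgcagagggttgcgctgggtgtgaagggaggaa
Adcy1, chr11:7063183-7063482, plus strand: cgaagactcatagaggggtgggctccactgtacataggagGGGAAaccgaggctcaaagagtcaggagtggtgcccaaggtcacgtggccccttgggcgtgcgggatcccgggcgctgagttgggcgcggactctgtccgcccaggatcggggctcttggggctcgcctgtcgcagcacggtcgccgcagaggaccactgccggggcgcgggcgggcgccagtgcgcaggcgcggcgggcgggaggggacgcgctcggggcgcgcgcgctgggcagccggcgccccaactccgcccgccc
Ms4a4a, chr19:11375238-11375537, plus strand: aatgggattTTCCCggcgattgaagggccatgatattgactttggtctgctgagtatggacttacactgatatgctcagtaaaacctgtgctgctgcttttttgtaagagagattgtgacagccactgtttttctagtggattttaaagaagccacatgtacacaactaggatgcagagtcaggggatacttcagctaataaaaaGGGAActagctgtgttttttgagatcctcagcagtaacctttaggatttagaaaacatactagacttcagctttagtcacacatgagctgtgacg
Slco1b2, chr6:141629268-141629567, plus strand: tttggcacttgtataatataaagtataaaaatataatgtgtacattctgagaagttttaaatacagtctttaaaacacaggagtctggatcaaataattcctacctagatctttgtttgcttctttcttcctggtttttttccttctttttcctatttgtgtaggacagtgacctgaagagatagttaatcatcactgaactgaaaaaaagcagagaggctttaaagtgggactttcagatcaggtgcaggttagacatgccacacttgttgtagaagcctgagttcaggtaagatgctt
Itgax, chr7:128129300-128129599, plus strand: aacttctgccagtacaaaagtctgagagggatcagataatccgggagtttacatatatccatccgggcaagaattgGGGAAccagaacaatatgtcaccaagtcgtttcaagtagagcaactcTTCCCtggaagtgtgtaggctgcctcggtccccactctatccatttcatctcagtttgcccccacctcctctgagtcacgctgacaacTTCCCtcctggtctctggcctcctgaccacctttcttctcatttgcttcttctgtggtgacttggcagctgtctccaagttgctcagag
Gimap3, chr6:48770802-48771101, minus strand: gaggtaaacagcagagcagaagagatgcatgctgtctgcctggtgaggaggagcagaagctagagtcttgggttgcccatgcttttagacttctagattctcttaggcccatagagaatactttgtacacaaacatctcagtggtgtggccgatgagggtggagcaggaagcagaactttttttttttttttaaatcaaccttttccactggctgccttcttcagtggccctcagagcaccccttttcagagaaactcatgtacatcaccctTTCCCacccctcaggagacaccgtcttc
GGGAA, searched on both strands, was in 59.3% of the 54 windows, in 62.7% of all 32851 promoter windows and in 61.4% of those of silent genes. The longer TGGGAA, which contains GGGAA, was in 16.7% of the windows of the set against 25.6% of all windows. Only 7 windows of the set, or 13.0%, were CpG-rich (G+C above 50% and observed over expected CpG above 0.6), against 17.9% for silent genes, 33.3% for all windows and 67.1% for genes at 2 CPM or more at 24 h. The Adcy1 window above is one of the 7. TATAAA was in 24.1% of the windows of the set, in 18.5% for silent genes, 13.6% for all and 6.86% for genes at 2 CPM or more at 24 h, and 2 of its matches lie in the Slco1b2 window. The E-box CANNTG was in 75.9% against 72.3% of all windows, GGGCGG in 18.5% against 35.7%, TGTGGT in 11.1% against 16.8%, and TGTTTAC in 3.70% against 3.65%. In the share of CpG-rich windows and of windows with TATAAA or GGGCGG (24.2% for silent genes, 61.6% for genes at 2 CPM or more at 24 h) the set was nearer to silent genes than to genes transcribed at 24 h. In TGGGAA (26.8% and 22.8%) and TGTGGT (18.5% and 12.7%) it was not. Genes of the set count in both of these groups and were chosen from the silent genes, so likeness to these is partly built in. CpG-rich windows and windows with TATAAA or GGGCGG numbered 7, 13 and 10 in the set, and the differences were not tested.

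The set came on over the whole day. Mean levels first passed 0.5 CPM at 1 h for 3 genes, at 2 h for 9, at 6 h for 34, at 12 h for 20, at 15 h for 9, at 18 h for 8 and at 21 h for 3. By 2 h 12 genes had passed, by 6 h 46, by 12 h 66, and none waited for 24 h. The higher level of 2 CPM was reached by 1 gene at 2 h, by 15 genes after 6 h, 24 after 12 h, 38 after 15 h, 62 after 18 h and 69 after 21 h. The order of onsets was much the same in the replicates taken alone, with the same onset in both for 60 genes, onsets 1 time point apart for 22 and further apart for 4, S1pr1, Ramp3, Cdh19 and Adamts13. Once past 0.5 CPM, 77 genes stayed there.

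**Figure D1:**
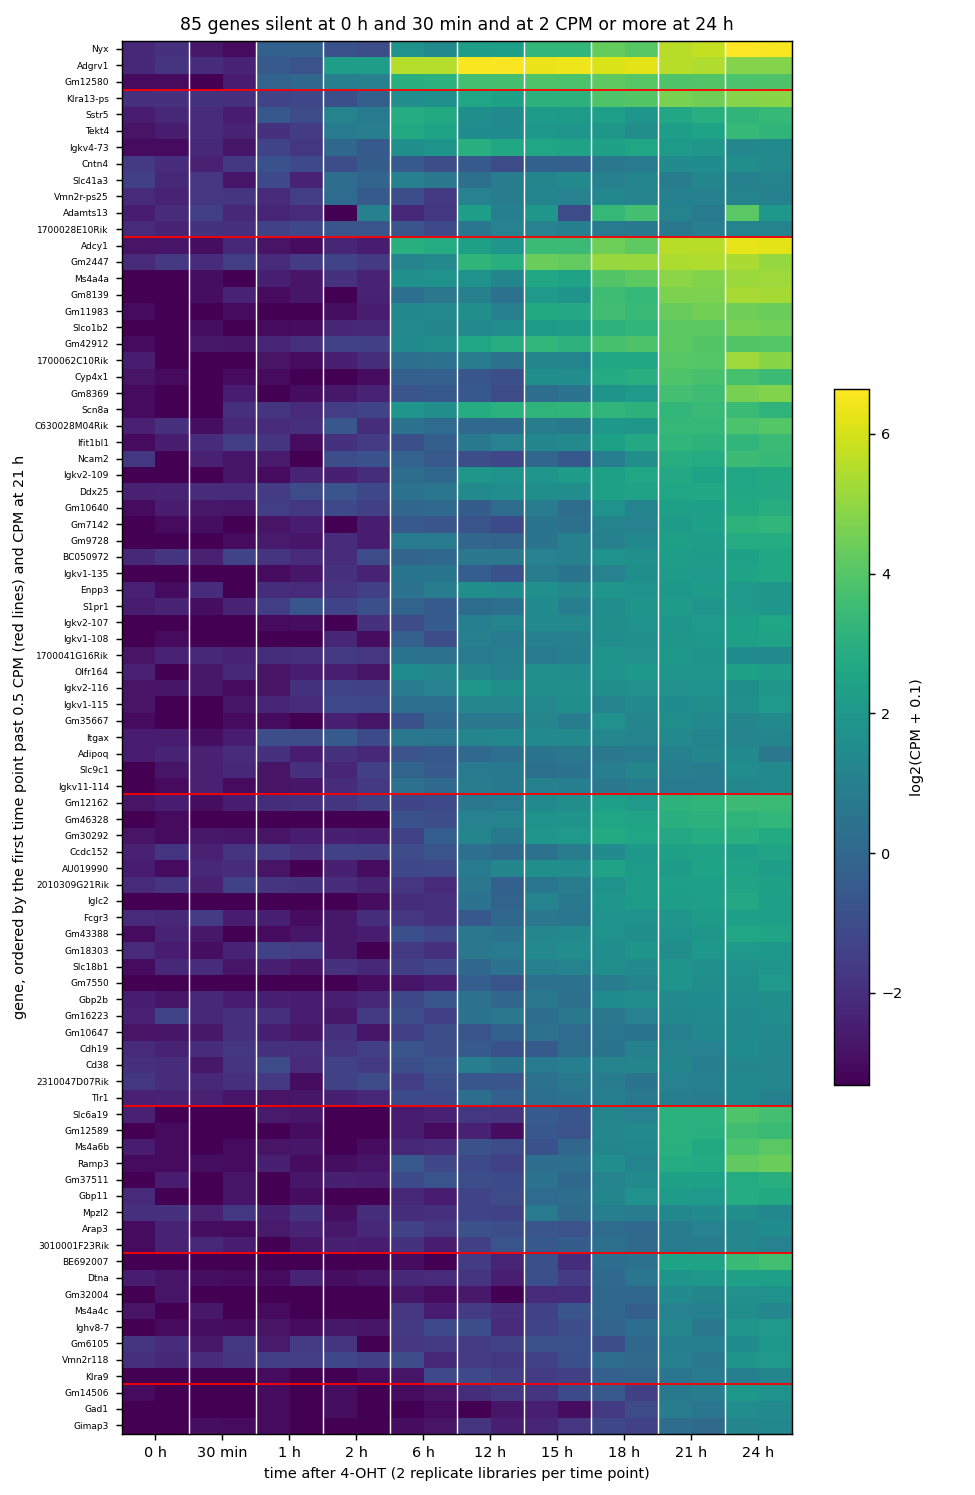
Levels of 85 of the 86 genes in the 20 libraries as log2(CPM + 0.1) by colour, with libraries in columns by time after 4-OHT (replicate 1 left, replicate 2 right) and genes in rows by the first time point past 0.5 CPM, which red lines separate. The 34 genes with an onset at 6 h form the largest block, and the replicates of Adamts13 part visibly at 2 h, 15 h and 24 h.

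Together the 86 genes took 5.42 and 5.50 CPM in the 2 libraries at 0 h. Their sum was 142 and 140 CPM after 6 h, 249 and 240 after 12 h, 449 and 458 after 18 h, and 896 and 867 after 24 h. The 5 highest genes made up 32.5% of the summed level at 24 h. The sum was higher at each of these time points than at the one before in both replicates, and 68 of the genes were highest at 24 h, 11 at 21 h, 3 at 18 h, 2 at 15 h and 2 at 12 h.

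Between 1 h and 21 h all 86 genes were tested, because each had 10 counts or more in at least 2 of the 14 libraries. By edgeR's quasi-likelihood test 85 of them rose, at a Benjamini-Hochberg adjusted p under 0.01 and more than a 2-fold change. None fell, and 0 were lower at an unadjusted p under 0.05. Among all 16173 genes tested 17.9% were higher and 16.6% lower. The median log2 fold change was 6.21 in the set and -0.0015 over all genes. 37 of the 86 genes had 3 counts or fewer in both libraries at 1 h, and with those folds set to the bound that 3 counts per library allow, the median was 5.18. The gene not called was Adamts13 (log2 fold change 4.15 ± 1.34 SE, adjusted p = 0.0103), which was also lower at 21 h than at 18 h. The labels do not say that replicates were separate cultures, so p-values measure the spread between these libraries. Over all genes replicates differed most at 18 h, 12 h and 21 h, with a chi-square per degree of freedom of 14.9, 9.95 and 4.78 against 1.26 to 2.58 at the other time points.

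With the 2-fold limit the step from 2 h to 6 h, which is also longer than the later steps from 12 h on, had the most calls. Without that limit 48 genes were called higher there and 53 from 15 h to 18 h. From 1 h to 2 h 8 genes of the set rose and 1 fell (all genes 1.42% higher, 1.04% lower). From 2 h to 6 h 48 rose and 1 fell (3.82% and 3.12%), and from 6 h to 12 h 33 rose and 3 fell (2.63% and 2.07%). Over the 3-hour steps that followed fewer of all genes were called. 20 genes rose from 12 h to 15 h (0.359% of all genes higher, 0.266% lower), 33 from 15 h to 18 h (0.649% and 0.346%) and 27 from 18 h to 21 h (0.42% and 0.173%). None fell in the first 2 of these steps, with 1 and 0 falling at an unadjusted p under 0.05, and 1 fell in the last. A gene that must end high has to rise in some step, so these shares say when and not whether the set rose. Without replicate 1 at 1 h the count for the first step was 4, without replicate 2 at 1 h it was 5, and without replicate 1 at 2 h it was 4. The count from 12 h to 15 h was 11 without replicate 2 at 12 h. 2 of the 48 rises at 6 h, Slc6a19 and Ms4a4c, came from 0 counts at 2 h to so few at 6 h that the bound on the fold was under 2.

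**Figure D2:**
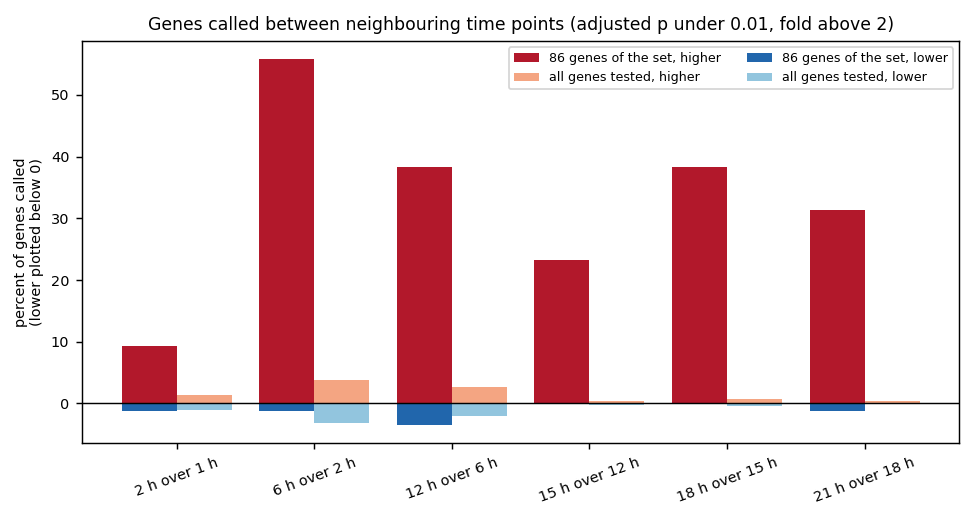
Percent of genes called higher (above 0) or lower (drawn below 0) in each step between neighbouring time points from 1 h to 21 h, for the 86 genes (dark bars) and for all 16173 genes tested (light bars). Dark bars above 0 exceed the light ones in each step, by the widest margin at 6 h, where 55.8% of the set was called higher against 3.82% of all genes.

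The number of steps in which a gene rose was 0 for 3 genes, 1 for 24, 2 for 38, 3 for 15 and 4 for 6. For 57 genes the first step called higher ended at the time point at which the mean first passed 0.5 CPM. 10 genes were called higher at 6 h and in no later step, 19 were called higher at 6 h, not higher at 12 h and higher again in a later step, and 17 were called higher at both 18 h and 21 h. 9 genes belong to both of the last 2 groups.

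**Figure D3:**
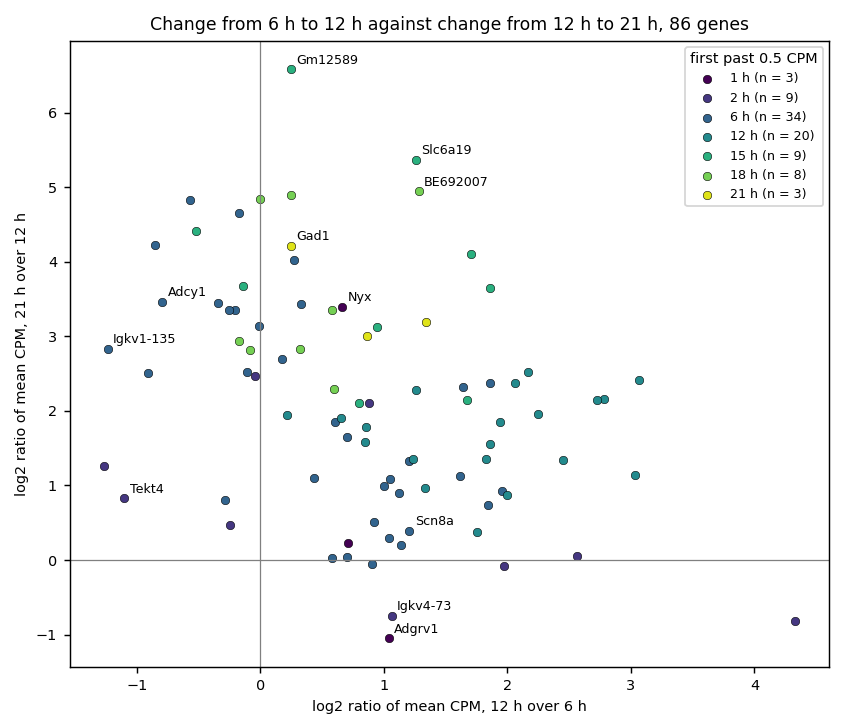
Change from 6 h to 12 h (horizontal axis, log2 ratio of mean CPM) against change from 12 h to 21 h (vertical axis, log2 ratio), 1 point per gene, coloured by the time point at which it first passed 0.5 CPM. Levels of 3 counts or fewer in both libraries (7 genes at 6 h, 3 of them also at 12 h) were set to 3 counts per library, and points left of 0, such as Adcy1 and Tekt4, were lower at 12 h than at 6 h.

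Adgrv1, which encodes a very large adhesion receptor of hair cells and photoreceptors, was among the first to come on and stood lower again at the end. It had 0.597 and 0.482 CPM after 1 h, 4.54 and 4.69 after 2 h, 45.6 and 46.0 after 6 h, 93.4 and 94.9 after 12 h, 47.8 and 43.4 after 21 h and 27.5 and 27.4 after 24 h. The levels at 6 h and 21 h overlapped, and those of the other time points given did not. The rises at 2 h (log2 fold change 3.04 ± 0.18 SE, adjusted p = 6.66e-09 in edgeR's quasi-likelihood test), 6 h (3.31 ± 0.09, adjusted p = 4.28e-13) and 12 h (1.05 ± 0.07, adjusted p = 7.06e-09) were all called. No later single step was called lower. Polr3g, which ends 40.7 kb upstream on the same strand, went from 106 CPM at 0 h to 37.2 CPM at 24 h.

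Nyx, which encodes nyctalopin, a leucine-rich repeat protein of the retina, passed 0.5 CPM at 1 h with 0.747 and 0.760 CPM, and was back at 0.468 and 0.415 after 2 h. It then stood at 3.37 and 2.62 CPM after 6 h, 4.64 and 4.84 after 12 h, 19.4 and 16.7 after 18 h, 47.1 and 52.6 after 21 h and 99.7 and 93.9 after 24 h. The step from 1 h to 2 h was not called (log2 fold change -0.81 ± 0.28 SE, adjusted p = 0.0385 in edgeR's quasi-likelihood test), while the step from 18 h to 21 h was (1.57 ± 0.08, adjusted p = 4.49e-09). The lincRNA Gm12580 was the other gene with an onset at 1 h, at 0.811 and 0.938 CPM and had 12.7 and 12.9 CPM after 12 h, its highest level of 18.0 and 16.5 after 18 h and 13.9 and 14.2 after 24 h.

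Adcy1, the adenylyl cyclase that calcium and calmodulin stimulate, had a first wave at 6 h and a far larger one later. It went from 0.110 and 0.0732 CPM after 2 h to 7.95 and 6.93 after 6 h, then 4.93 and 3.64 after 12 h, 11.0 and 11.1 after 15 h, 21.4 and 17.9 after 18 h, 46.8 and 47.8 after 21 h and 76.4 and 76.0 after 24 h. Both libraries at 12 h lay under both at 6 h. Rises were called at 6 h (log2 fold change 6.31 ± 0.27 SE, adjusted p = 7.13e-11 in edgeR's quasi-likelihood test), at 15 h (1.42 ± 0.12, adjusted p = 9.87e-07) and at 21 h (1.37 ± 0.09, adjusted p = 4.59e-08). At 0 h it had 3 counts or fewer in each library, so its level at 24 h was at least 1099-fold higher.

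Tekt4, a tektin of sperm flagella, and Sstr5, a somatostatin receptor, lie next to each other on chromosome 17 and shared this fall at 12 h. Tekt4 (chr17:25454615-25476602, GRCm38, plus strand) had 1.57 and 1.83 CPM after 2 h, 6.55 and 5.44 after 6 h, 2.81 and 2.78 after 12 h, 4.54 and 5.40 after 21 h and 10.1 and 9.09 after 24 h. Sstr5 (chr17:25489875-25497288, minus strand) had 2.09 and 1.61 CPM after 2 h, 7.17 and 6.46 after 6 h, 3.05 and 2.62 after 12 h, 6.22 and 7.39 after 21 h and 9.17 and 10.1 after 24 h. In both genes the level at 12 h was lower than at 6 h in each replicate. The fall was called for Sstr5 (log2 fold change -1.26 ± 0.15 SE, adjusted p = 6.7e-06 in edgeR's quasi-likelihood test) and for Tekt4 (-1.09 ± 0.14, adjusted p = 1.25e-05), the latter not without replicate 1 at 6 h (-0.96). The third fall at 12 h was that of the immunoglobulin kappa segment Igkv1-135, from 1.35 and 1.38 CPM after 6 h to 0.688 and 0.471 after 12 h (-1.24 ± 0.30, adjusted p = 0.00397), which was lost without replicate 2 at 12 h (-0.97), replicate 1 at 6 h (-1.26) or replicate 2 at 6 h (-1.22). In mean CPM 22 of the 86 genes were lower at 12 h than at 6 h.

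Scn8a, a voltage-gated sodium channel, and the integrin gene Itgax, which encodes CD11c, rose and then held. Scn8a had 0.248 and 0.317 CPM after 2 h, 3.64 and 2.94 after 6 h, 7.09 and 8.09 after 12 h, 9.52 and 10.4 after 21 h and 11.0 and 8.81 after 24 h. Itgax had 0.405 CPM in both libraries at 1 h, 1.48 and 1.40 after 6 h, 2.24 and 2.44 after 12 h, 2.64 and 2.16 after 21 h and 2.08 and 2.29 after 24 h. Neither had a called step after 12 h. The V pseudogene Igkv4-73 was highest at 12 h, at 7.42 and 6.10 CPM, and was down to 2.36 and 2.55 by 24 h.

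**Figure D4:**
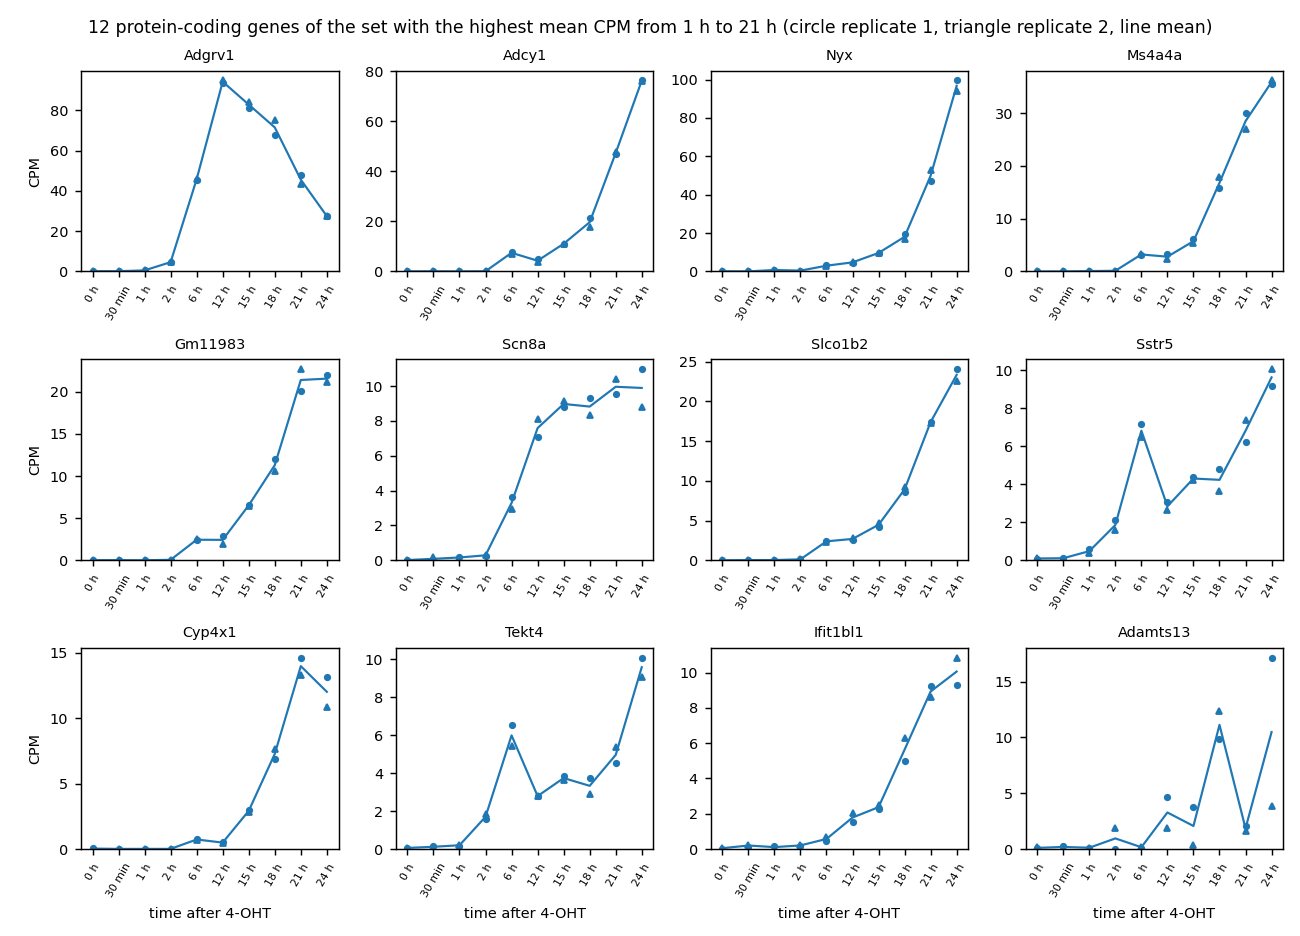
CPM (linear axis from 0, scaled for each panel) by time after 4-OHT (time points evenly spaced) for the 12 protein-coding genes of the set with the highest mean over the 14 libraries from 1 h to 21 h, with replicate 1 as circles, replicate 2 as triangles and the mean as a line. Adgrv1 peaks at 12 h, Sstr5 and Tekt4 dip there, Scn8a levels out, and the replicates of Adamts13 part at several time points.

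Several genes had most of their increase after 12 h. Slc6a19, a transporter of neutral amino acids in gut and kidney, had 0.209 and 0.183 CPM after 12 h, 0.628 and 0.538 after 15 h, 2.20 and 2.05 after 18 h, 8.17 and 8.05 after 21 h and 14.8 and 12.4 after 24 h. The lincRNA Gm12589 had 0.0897 and 0.0262 CPM after 12 h, 0.549 and 0.489 after 15 h, 2.36 and 2.56 after 18 h, 8.17 and 7.97 after 21 h and 11.9 and 10.9 after 24 h. Each time point of both genes lay above the one before in both replicates from 12 h on. From 18 h to 21 h the log2 fold change was 2.04 ± 0.11 SE for Slc6a19 (adjusted p = 1.19e-08 in edgeR's quasi-likelihood test) and 1.82 ± 0.13 for Gm12589 (adjusted p = 1.48e-07). Dtna, which encodes dystrobrevin alpha, went from 0.969 and 1.39 CPM after 18 h to 3.51 and 3.89 after 21 h (1.77 ± 0.20, adjusted p = 9.48e-06). Cyp4x1, a cytochrome P450, went from 0.538 and 0.445 CPM after 12 h to 14.6 and 13.3 after 21 h and was a little lower at 24 h, at 13.2 and 10.9 CPM. Slco1b2, an organic anion transporter of the liver, went from 2.51 and 2.85 CPM after 12 h to 17.5 and 17.3 after 21 h and 24.1 and 22.6 after 24 h.

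The last to pass 0.5 CPM were Gm14506, Gad1 and Gimap3. Gad1, the enzyme that makes the transmitter GABA, had 0.220 and 0.390 CPM after 18 h, 1.71 and 1.41 after 21 h and 2.86 and 2.64 after 24 h, and no count in the 4 libraries at 0 h and 30 min. Gimap3, one of the GIMAP GTPases that lymphocytes use for survival, had 0.352 and 0.292 CPM after 18 h, 1.08 and 0.997 after 21 h and 2.23 and 2.38 after 24 h. From 18 h to 21 h Gad1 rose by a log2 fold change of 2.46 ± 0.32 SE (adjusted p = 5.48e-05 in edgeR's quasi-likelihood test) and Gimap3 by 1.78 ± 0.29 (adjusted p = 0.000561). DESeq2's Wald test did not call these steps, nor that of Dtna. Of 8 GIMAP genes listed for comparison 5 could be tested, and 5 were higher at 21 h than at 1 h, beside 17.9% of all genes, with Gimap3 chosen for its high level at the end. The others were on already, Gimap8 at 12.5 CPM and Gimap6 at 9.45 CPM at 0 h, or stayed under 2 CPM. Gimap5 did so, with 0.406 CPM at 0 h and 1.47 CPM at 24 h. Levels of Gimap8, Gimap6, Gimap9 and Gimap5 were lower at 1 h than at 0 h, with Gimap8 at 7.74 CPM and Gimap6 at 5.33 CPM. A rise from 1 h is thus not always one from 0 h, and Gimap9 went from 3.41 CPM at 0 h to 3.24 CPM at 24 h.

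Some genes of the set lay beside each other. With gaps of up to 200 kb, 36 of the 86 lay in 13 runs of 2 or more, 9 of them pairs, and in 5 runs all genes had the same onset. No test of clustering was made. 58 of the 86 overlapped no other counted gene. Of the rest, 7 overlapped a gene on the same strand and 24 a gene on the opposite strand, and 2 overlapped a transcribed gene outside the set, namely Gm10640 with Gramd1a (359.5 CPM at 24 h) and Ccdc152 with Selenop (17.2 CPM). Of genes lying wholly inside a gene of the opposite strand, 6260 of 6266 had no count in any library, as had 5996 of 5998 inside a gene of the same strand and 37.3% of 30194 that overlap none. The counting thus left out reads shared by genes on either strand, so that nearly all genes inside others could not enter the set, and reads of a gene and of antisense transcripts outside the annotation cannot be told apart. 26 of the 86 had a gene at 2 CPM or more at 24 h ending within 50 kb upstream on the same strand. For 8 of these that gene itself belonged to the set. Genes ending nearby on the opposite strand, such as Nyx beside Gm14506, were not searched, though the counting did not tell strands apart. Whether reads of the set came from transcription running on from neighbours was not tested.

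The Ms4a run on chromosome 19 (chr19:11375523-11531256, GRCm38) held 5 of the genes within 156 kb, and its 10 counted genes were all silent at the start. Ms4a genes encode membrane proteins with 4 passes, the B cell antigen CD20 among them. Ms4a4a came on at 6 h, with 3.10 and 3.34 CPM, stayed at 3.32 and 2.28 after 12 h and went on to 15.7 and 17.9 after 18 h, 30.0 and 27.0 after 21 h and 35.6 and 36.3 after 24 h. Its neighbor Gm8369 had 0.517 and 0.564 CPM after 6 h, 3.46 and 4.02 after 18 h, 12.5 and 11.7 after 21 h and 24.3 and 26.6 after 24 h. Ms4a6b had 0.123 and 0.135 CPM after 6 h, 2.27 and 2.44 after 18 h, 7.81 and 6.61 after 21 h and 13.8 and 17.1 after 24 h. So 2 of the 5 passed 0.5 CPM at 6 h and the other 3 at 15 h or 18 h. BE692007 had no count in the 8 libraries up to 2 h and 10.3 and 12.1 CPM after 24 h, and Ms4a4c had 2.94 and 2.31 CPM after 24 h. From 18 h to 21 h rises were called for Gm8369 (log2 fold change 1.81 ± 0.11 SE, adjusted p = 3.34e-08 in edgeR's quasi-likelihood test), Ms4a6b (1.72 ± 0.14, adjusted p = 5.54e-07), BE692007 (2.30 ± 0.20, adjusted p = 2.07e-06) and Ms4a4c (1.40 ± 0.23, adjusted p = 0.000597), while the step of Ms4a4a stayed under 2-fold (0.87 ± 0.10, adjusted p = 1.79e-05). The calls of BE692007 and Ms4a4c were lost with DESeq2's Wald test. Of 19 counted Ms4a genes 18 were silent and 3 were at 2 CPM or more at 24 h. Ms4a4b, within the run, reached 1.28 CPM, and Ms4a1, the gene for CD20, had no count at 0 h or at 24 h. Whether reads of Ms4a1 were lost in the counting was not tested. Ms4a genes are close copies of each other, and how reads that fit several of them were counted is not given in the sources used here.

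The Igkv run on chromosome 6 (chr6:68151885-68326752) held 6 V segments, 5 of them pseudogenes, and each passed 0.5 CPM at 6 h. Germline transcripts of unrearranged V segments are a known feature of loci about to recombine. Igkv2-109 had 0.0826 and 0.146 CPM after 2 h, 1.03 and 0.926 after 6 h, 3.74 and 3.30 after 12 h and 6.37 and 5.40 after 21 h. Igkv2-116 had 0.303 and 0.293 CPM after 2 h, 1.60 and 2.03 after 6 h, 3.80 and 2.98 after 12 h and 3.21 and 3.31 after 21 h. All 6 were called higher from 2 h to 6 h, and no step after 12 h was called for any of the 6, as in Igkv11-114 with 1.70 and 1.52 CPM after 12 h and 1.68 and 1.60 after 21 h. The run also holds Igkv14-111 and Igkv1-110, which were at 2.18 and 2.07 CPM at 0 h and so outside the set, and at 16.6 and 14.8 CPM after 12 h. Of 160 Igkv genes counted 151 were silent and 8 belonged to the set. On chromosome 16 the constant segment Iglc2 of the lambda light chain had 1 count in the 8 libraries up to 2 h, 1.29 and 0.812 CPM after 12 h, 4.57 and 4.81 after 21 h and 6.33 and 4.79 after 24 h, and rose from 6 h to 12 h (log2 fold change 2.74 ± 0.41 SE, adjusted p = 9.16e-05 in edgeR's quasi-likelihood test). Over all 11 immunoglobulin segments of the set, 9 were called higher at 6 h, 6 at 12 h, 2 at 15 h, 3 at 18 h and 1 at 21 h. V segments are near-copies of each other, so counts of one may hold reads of another.

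**Figure D5:**
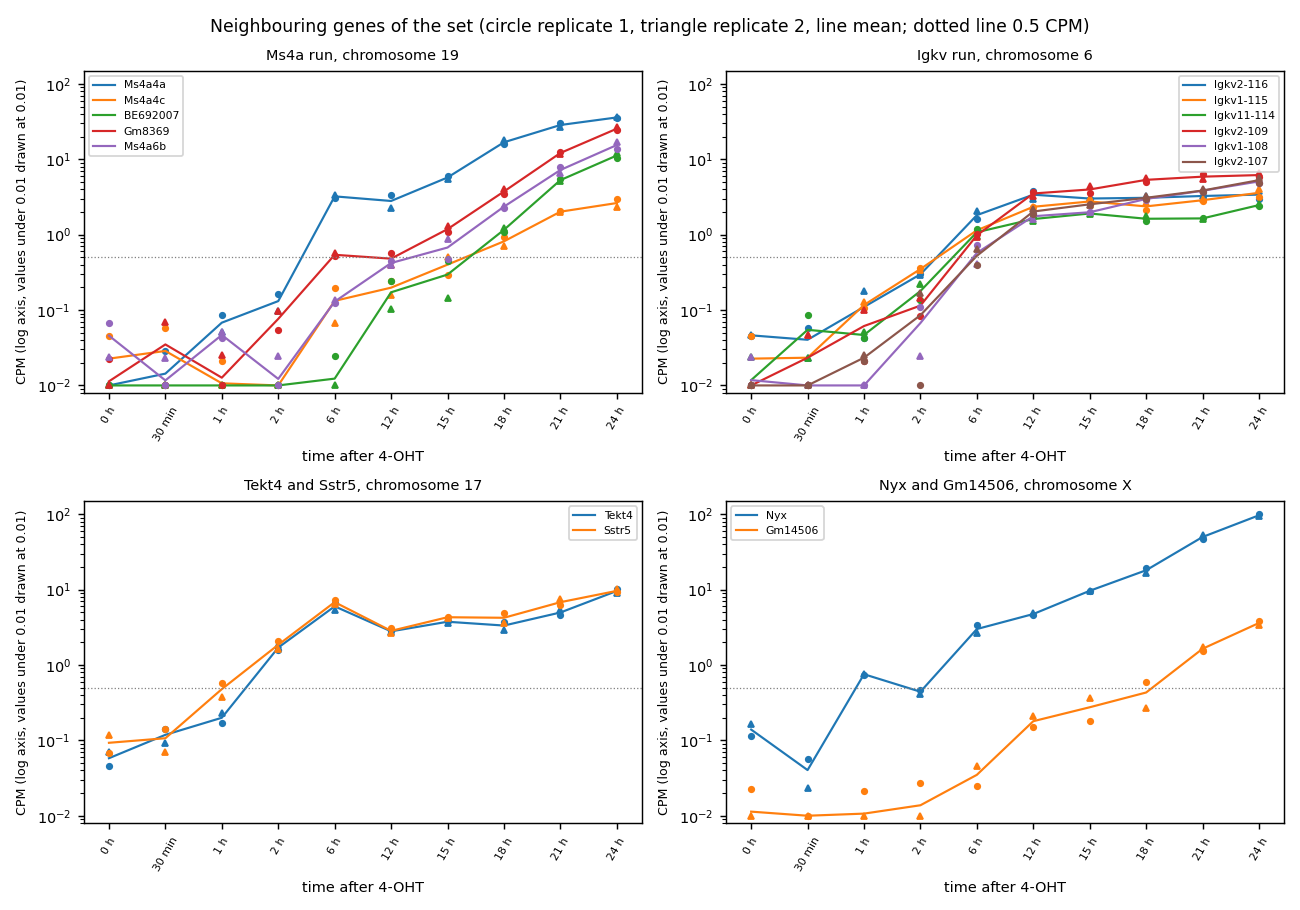
CPM on a log axis by time after 4-OHT (time points evenly spaced) for neighbours in 4 runs, with replicate 1 as circles, replicate 2 as triangles, means as lines, values under 0.01 drawn at 0.01 and a dotted line at 0.5 CPM. The 5 genes of the Ms4a run cross 0.5 CPM between 6 h and 18 h, the 6 Igkv segments all at 6 h, Tekt4 and Sstr5 follow the same course, and Gm14506 stays below Nyx throughout.

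Neighbours of unlike levels passed the fixed limit of 0.5 CPM at different times. Nyx passed 0.5 CPM at 1 h, and the processed pseudogene Gm14506, which starts just past its end on the other strand, at 21 h with 1.53 and 1.75 CPM. At 12 h Nyx was at 4.9% of its own level at 24 h and Gm14506, with a mean of only 0.180 CPM, at 4.98%. Klra13-ps and Klra9, from the Ly49 receptor family of natural killer cells, passed it at 2 h and 18 h respectively. Their levels at 6 h were 10.2% and 9.99% of their own levels at 24 h. The courses were not alike at every time point. From 12 h to 15 h the mean of Klra13-ps went from 5.47 to 8.30 CPM and that of Klra9 from 0.310 to 0.252 CPM. Klra13-ps had 0.441 and 0.708 CPM after 2 h, 2.86 and 3.09 after 6 h, 14.7 and 15.6 after 18 h and 28.5 and 29.5 after 24 h. Klra7, which lies between them and is not in the set, went from 0.288 CPM at 0 h to 54.9 CPM at 24 h. Klra1, also outside the set, was on already, at 18.7 CPM at 0 h, and reached 470 CPM at 24 h. Whether counts of one Klra gene hold reads of another was not tested. Of 5 natural killer cell markers 3 could be tested. All 3 were higher at 21 h than at 1 h, beside 17.9% of all genes. One of them, Prf1, was silent at 0 h and 30 min, so it may have passed the filter on counts only through later libraries. The sum of 5 markers was 2.49 to 3.08 CPM at 0 h and 30 min and 49.0 to 53.5 CPM at 24 h. Nearly all of it was Klrd1 (2.52 CPM at 0 h, 49.8 at 24 h), while Ncr1 stayed at 0.0131 CPM and Eomes had no count at 24 h, and the part of other cells in the Klra result was not tested. Of 4 T cell markers tested none rose and Tcf7 fell, and of 3 myeloid and 2 erythroid markers tested none was called. Of 3 plasma cell markers tested Irf4 and Jchain were higher. The shares of all genes were 17.9% higher and 16.6% lower.

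S1pr1 and Cd38 belonged to the set from the lists of lymphocyte genes, and Fcgr3 and Tlr1, from no list, were chosen after their values were seen. S1pr1, the receptor by which lymphocytes leave for the blood, had 0.256 and 0.532 CPM after 1 h, 0.813 and 0.632 after 6 h, 2.69 and 1.83 after 15 h and 4.32 and 3.57 after 21 h. Cd38, an ectoenzyme of B cells, had 0.419 and 0.519 CPM after 6 h, 1.79 and 1.36 after 12 h and 2.28 and 1.80 after 21 h. Fcgr3, an activating receptor for IgG, had 0.197 and 0.158 CPM after 6 h, 1.46 and 1.42 after 15 h and 3.57 and 4.16 after 21 h. Tlr1, a receptor for bacterial lipopeptides, had 0.369 and 0.361 CPM after 6 h, 1.11 and 0.733 after 12 h and 1.83 and 1.75 after 21 h. In all 4 both libraries at 21 h lay above both at 6 h. From 1 h to 21 h the log2 fold change was 3.55 ± 0.27 SE for S1pr1 (adjusted p = 3.99e-09 in edgeR's quasi-likelihood test), 3.12 ± 0.30 for Cd38 (adjusted p = 8.86e-08) and 6.20 ± 0.31 for Fcgr3 (adjusted p = 1.89e-11). The fold of Fcgr3 starts from a level near 3 counts per library at 1 h, so its size is uncertain. Of the lists compared, the 31 immature and mature B cell genes held 7 silent genes and 1 of the set (Cd38), and the 32 homing genes 15 silent genes and 2 of the set (S1pr1 and Itgax). At 21 h against 1 h 12 of 24 of the former tested were higher and 1 lower, and 9 of 18 of the latter were higher and 4 lower, beside 17.9% and 16.6% of all genes. The genes called higher include Cd38 in the former and S1pr1 and Itgax in the latter, which were chosen for their high level at the end. Gbp2b, a guanylate-binding GTPase, and Gbp11, annotated as a polymorphic pseudogene of that family, also belonged to the set, at 2.89 and 3.05 CPM and 7.07 and 6.56 CPM after 24 h, while the list of 36 interferon-stimulated genes held 14 silent genes and 0 of the set. Of its 26 genes tested 12 were higher and 3 lower at 21 h than at 1 h, beside 17.9% and 16.6% of all genes.

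Some further genes are best known from other tissues. Ncam2, a neural adhesion gene, had 0.413 and 0.464 CPM after 2 h, 0.419 and 0.340 after 12 h and 7.27 and 6.98 after 21 h. It first passed 0.5 CPM at 6 h, and its mean at 12 h was 0.552-fold that at 6 h. Ramp3, which modifies the receptors for calcitonin-like peptides, had 0.359 and 0.288 CPM after 12 h, 7.09 and 6.76 after 21 h and 18.4 and 21.1 after 24 h. Adipoq, the hormone adiponectin of fat cells, had 0.957 and 1.15 CPM after 12 h and 1.95 and 2.26 after 21 h, and stood just inside the limit at 24 h with a mean of 2.02 CPM from 2.60 and 1.44. The others just inside it were Vmn2r-ps25 (2.03 CPM) and Slc41a3 (2.05 CPM), and just outside were Sspn (1.93 CPM), AC163635.1 (1.93 CPM) and Gm9227 (1.92 CPM). At the 0.2 CPM limit at 0 h, Gm16223 (0.198 CPM), Slc41a3 (0.195 CPM) and Cntn4 (0.184 CPM) lay just inside and Gm36723 (0.241 CPM), 1700111N16Rik (0.241 CPM) and Rassf8 (0.253 CPM) just outside. A further 237 silent genes were between 0.5 and 2 CPM after 24 h.

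The level at 24 h was 10.5-fold (Slc41a3) to 1099-fold (Adcy1) that at 0 h. In 48 genes, Adcy1 among them, both libraries at 0 h had 3 counts or fewer, so the fold is a lower bound taken against 3 counts per library. 81 of the genes had 2 CPM or more in both libraries at 24 h, and 71 were under 0.2 CPM in each of the 4 libraries at 0 h and 30 min. Adamts13, the protease that cuts von Willebrand factor, was the least repeatable, with 0 and 1.90 CPM after 2 h, 3.74 and 0.391 after 15 h, 9.84 and 12.4 after 18 h, 2.07 and 1.63 after 21 h and 17.1 and 3.82 after 24 h. It had no steady course. Its rise from 6 h to 12 h (log2 fold change 4.27) was lost without any one of 7 libraries, namely replicate 1 at 12 h (3.49) and both replicates at 1 h, 6 h and 21 h (3.96 to 4.68).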

How the data were processed

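Chromatin-associated RNA was sequenced from 20 libraries, 2 at each of 10 time points. The authors deposited whole-number read counts per gene, not normalized, and the submitters' processing notes name CASAVA 2.17, featureCounts and GRCm38. Per the study's methods, reads were aligned to mm10 with STAR in an nf-core pipeline and intronic reads were included in the counts. Counts were divided by the library total for CPM, and gene models came from GENCODE M21 and promoter windows from RefSeq. Libraries held 33296158 to 46868954 counts, and floors of 3 counts cover counting error only. The labels do not settle whether the 2 libraries at 0 h came from 2 cultures or from 1.

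Libraries of 1 h to 21 h were fitted with edgeR 4.0.16 (R 4.3.3): TMM scaling, genes with 10 counts or more in at least 2 of 14 libraries, time as a factor, and the quasi-likelihood test. Calls needed a Benjamini-Hochberg adjusted p under 0.01 and more than a 2-fold change, and SE is the log2 fold change divided by the square root of F. DESeq2 1.42.0, other scalings, filters and limits, the replicate number as a block, and fits without each library were alternatives. The fit was tested on simulated data.

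The members and lists were chosen with earlier results of these data known. Genes were named by fixed rules: the 12 protein-coding genes with the highest mean from 1 h to 21 h, the 3 highest at 21 h for each onset, genes of the listed pathways, those nearest the limits, families with 3 or more members, and neighbours within 200 kb. Ncam2, Fcgr3, Tlr1, Gbp2b, Gbp11, Cdh19 and the genes that left silence only in between were chosen after their values were seen. The values of 1 gene of the set are not reported here.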

Additional observations from a re-analysis of the deposited data

How the results depend on the processing

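The number of genes in the set depended on its limits. It was 86 as defined, 54 with 0.1 CPM as the limit for silence, 38 with 3 counts or fewer in each of the 4 early libraries, 153 with 1 CPM at 24 h and 48 with 4 CPM at 24 h. TMM scaling and DESeq2's size factors each gave 101 genes, among them all 86, and 68 of the 86 met the limits in both replicates. By 2 h 20 genes had passed 0.3 CPM, 4 had passed 1 CPM and 7 had passed 0.5 CPM for good, and by 6 h 28 had passed 1 CPM. With no limit on the fold change 33 genes rose from 12 h to 15 h, 53 from 15 h to 18 h and 41 from 18 h to 21 h. With replicates or libraries left out singly, the set held 78 to 83 genes, of which 12 to 13 passed by 2 h, 43 to 48 by 6 h and 64 to 67 by 12 h. Counts called higher were then 85 to 86 from 1 h to 21 h, 4 to 9 at 2 h, 38 to 49 at 6 h, 24 to 34 at 12 h, 11 to 20 at 15 h, 24 to 33 at 18 h and 25 to 29 at 21 h, the lone library being assumed to vary like the others. Of 5479 values of single genes under alternatives 5242 kept their direction and side of the threshold, 227 lost the call, 10 gained it and 0 reversed. Differences between replicates 1 and 2 were compared between time points over 6739 genes. Their correlations went from -0.72 to 0.56, with 10 of 21 pairs over 0.1. Replicate numbers thus did not mark one constant pairing, and a block on the number cannot take up differences that change sign between time points. With the replicate block 85, 8, 47, 32, 20, 31 and 27 genes rose in the same order, 5 of 261 single-gene calls were lost, and Adamts13 was no longer called lower at 21 h. Levels near 3 counts per library limit what the early time points can show.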

Other observations

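Other silent genes passed 2 CPM only in between. 27 genes that were under 0.2 CPM at 0 h and 30 min reached 2 CPM at some time from 1 h to 21 h and were under it at 24 h, 14 of them highest at 6 h, 11 at 18 h, 1 at 15 h and 1 at 21 h. At 24 h 15 of them were still past 0.5 CPM and 12 were not. Gm32618 stood at 12.7 CPM at 6 h and at 0.163 CPM at 24 h. A330049N07Rik had 7.72 CPM at 6 h and 0.112 CPM at 24 h. Olah, a thioesterase of fatty acid synthesis, had 3.66 CPM at 6 h and 0.112 CPM at 24 h, and Ryr2, the calcium release channel of heart muscle, had 2.05 and 0.116 CPM. Igkv19-93, an immunoglobulin kappa V segment, had 4.01 CPM at 18 h and 1.40 CPM at 24 h. These levels chose the genes and were not tested.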
